A study of Mus musculus with 9 samples.

Results

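The genes described here are the nuclear genes that encode complex III, cytochrome c, complex IV and complex V of mitochondrial oxidative phosphorylation, measured by RNA-seq of mouse kidney. They were chosen by name, as the protein-coding genes whose symbol in GENCODE mouse release M21 begins with Uqcr, with Cox followed by a digit of 4 to 8, or with Atp5, together with Cyc1, Cycs and Atpif1. The rule found 44 of the 29678 genes in each count table. Of these, 9 belong to complex III, 1 is cytochrome c, 16 belong to complex IV and 18 were placed with complex V. In the complex V group, Atp5s is named like a subunit but is not one, and Atpif1 encodes the inhibitor of the enzyme. Cox7b2, Cox8c and a readthrough gene at Atp5o, which also match the names, were not analysed here. After the filter on low counts 43 of the 44 were tested, and Cox8b, the one left out, is given by its counts. The names of 6 processed pseudogenes in the tables also match (Atp5k-ps2, Uqcrh-ps1, Uqcrh-ps2, Atp5l-ps1, Atp5l2-ps and Cox6c2). How reads shared with such copies were counted is not given in the sources used here, so the values of Atp5k, Uqcrh, Atp5l and Cox6c are uncertain to that extent.

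The kidneys fell into 3 groups, at 24 hours of reperfusion per the design text. BHBNa_bIRI kidneys came from bilateral ischemia-reperfusion injury preceded by sodium beta-hydroxybutyrate, a ketone body that tissues use as fuel in fasting. The bIRI kidneys had the same injury without it, and the Sham kidneys had the operation alone. The labels name 3 libraries per group, but the table given as bIRI replicate 2 was, in each of the 29678 genes, the average of the other bIRI tables, cut to a whole number, so 8 libraries with 2 of bIRI were compared. The labels give no strain, sex, age, dose or animal number, and nothing says that libraries of a group came from separate animals, so the p-values measure the spread between these libraries only. The question named by the series title is whether beta-hydroxybutyrate restores oxidative phosphorylation, of which these genes hold the last steps.

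In the inner mitochondrial membrane, complex III passes electrons from ubiquinol to cytochrome c, complex IV passes them on to oxygen, and both pump protons. Complex V, the ATP synthase, lets the protons back through a ring of c subunits and uses their flow to make ATP in its F1 head. Nearly all their subunits are encoded in the nucleus, the rest in mitochondrial DNA, and the proximal tubule of the kidney, rich in mitochondria, depends on them for its transport work. Complex IV has subunits with a common form and a form typical of heart and skeletal muscle, lung, testis or brown fat.

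RefSeq promoter windows on GRCm38.p6, from 250 bases before to 50 bases after a start site, were matched for 34 of the 44 genes, in 37 windows. The windows of 5 genes are shown, 5′ to 3′ on the strand of the gene, because they carry motifs known from promoters of respiratory genes and belong to genes with unlike changes. Uqcrc1 lies at chr9:108936398-108936697 (plus strand), and the others on the minus strand, Cox6a1 at chr5:115348909-115349208, Atp5e at chr2:174464052-174464351, Atp5k at chr5:108434350-108434649 and Cycs at chr6:50566520-50566819. Capitals mark the NRF1 motif (a palindrome of 10 letters) in Uqcrc1, Cox6a1 and Atp5k, the ETS motif CCGGAAG (here as its complement CTTCCGG) in Cox6a1, Atp5e and Atp5k, and the CRE motif TGACGTCA in Cycs.
Uqcrc1: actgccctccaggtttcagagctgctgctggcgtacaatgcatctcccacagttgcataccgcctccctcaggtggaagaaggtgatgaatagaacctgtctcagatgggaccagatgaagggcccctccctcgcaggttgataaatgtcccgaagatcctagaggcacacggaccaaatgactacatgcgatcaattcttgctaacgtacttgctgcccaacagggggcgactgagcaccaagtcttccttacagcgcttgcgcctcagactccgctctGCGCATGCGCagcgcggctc
Cox6a1: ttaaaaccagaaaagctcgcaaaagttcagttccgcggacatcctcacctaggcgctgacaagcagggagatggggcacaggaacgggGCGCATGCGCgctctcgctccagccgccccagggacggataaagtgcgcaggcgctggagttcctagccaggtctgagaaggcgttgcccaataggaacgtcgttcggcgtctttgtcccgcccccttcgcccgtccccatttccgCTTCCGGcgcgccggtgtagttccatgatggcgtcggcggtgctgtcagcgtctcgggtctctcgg
Atp5e: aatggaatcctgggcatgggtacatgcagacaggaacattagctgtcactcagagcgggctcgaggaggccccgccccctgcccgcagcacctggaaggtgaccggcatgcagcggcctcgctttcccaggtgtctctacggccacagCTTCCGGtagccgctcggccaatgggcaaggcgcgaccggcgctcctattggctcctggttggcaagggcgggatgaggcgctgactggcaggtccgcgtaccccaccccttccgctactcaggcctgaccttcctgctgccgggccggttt
Atp5k: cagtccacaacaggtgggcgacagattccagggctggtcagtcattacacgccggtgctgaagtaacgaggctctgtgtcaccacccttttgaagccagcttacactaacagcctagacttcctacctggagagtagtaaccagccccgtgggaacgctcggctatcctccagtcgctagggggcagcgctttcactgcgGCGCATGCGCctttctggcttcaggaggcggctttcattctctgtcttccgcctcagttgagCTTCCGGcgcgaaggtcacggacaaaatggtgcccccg
Cycs: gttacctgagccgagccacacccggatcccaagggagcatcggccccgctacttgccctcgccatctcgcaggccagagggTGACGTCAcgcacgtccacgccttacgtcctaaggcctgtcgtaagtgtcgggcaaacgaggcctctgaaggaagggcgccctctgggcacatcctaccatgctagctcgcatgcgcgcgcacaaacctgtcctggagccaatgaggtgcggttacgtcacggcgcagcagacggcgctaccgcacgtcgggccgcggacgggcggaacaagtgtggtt
Counted from the start site, the NRF1 match began at base 30 in Uqcrc1, at -162 in Cox6a1 and at -50 in Atp5k. The ETS match began at -16 in Cox6a1, at -102 in Atp5e and at 12 in Atp5k, and the CRE match at -169 in Cycs.

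Exact matches were searched on both strands, and no matches of different motifs overlapped in these genes. The NRF1 motif stood in 10.8% of the 37 windows, against 0.966% of all 32817 listed windows. It was found in Uqcrc1, Cox6a1, Atp5k and Atp5g2. The ETS motif stood in 27% of the windows, against 8.86% of all. Its 10 genes were Atp5e, Atp5h, Atp5j, Atp5k, Atp5l, Cox6a1, Cox6b1, Cox8a, Uqcr11 and Uqcrh. The CRE motif stood in 5.41% of the windows, against 1.79% of all, in Cycs and Uqcrfs1. The YY1 motif AAGATGGC stood in 8.11%, against 2.74%, in Atp5f1, Atp5j and Atp5j2, and the ERRA motif TCAAGGTCA in 2.7%, against 0.424%, in Atp5g3 alone. A match is a run of letters and not a shown binding site.

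Depth was even, with 33477985 to 45909063 counts per library. Levels are given as CPM, the standard scale of counts corrected for sequencing depth, here on TMM-scaled library sizes, on which 3 counts are worth 0.0646 to 0.0815 CPM. Differences were tested with edgeR's quasi-likelihood test in 1 fit of the 8 libraries, over 17967 genes, with an adjusted p (Benjamini-Hochberg) of 0.05 as the threshold for a call. Mitochondrially encoded genes held 24.0% to 30.3% of the counts in BHBNa_bIRI, 15.9% in both bIRI libraries and 11.2% to 13.3% in Sham. Genes with transcripts under 1000 bases held 14.3% to 17.3% of the other counts in BHBNa_bIRI, 11.1% and 7.06% in bIRI, and 7.87% to 11.6% in Sham. The 8 markers of the proximal tubule summed to 1609 to 1777 CPM in BHBNa_bIRI, 1426 and 1288 CPM in bIRI, and 11669 to 13122 CPM in Sham. The 4 markers of the thick ascending limb summed to 270 to 837 CPM in BHBNa_bIRI, 1508 and 4266 CPM in bIRI, and 1816 to 3349 CPM in Sham. Of these 4, 3 were lower in BHBNa_bIRI than in bIRI (8.65% of all genes), so the injured groups may not have been alike in all tubule markers. The bIRI libraries lay far apart in these markers. With offsets for the trends of each library with transcript length and GC content, 0 of the 4 were called, where 2 of all genes were lower. In whole tissue, fewer cells of a type and less RNA per cell cannot be told apart.

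The 44 genes together took 1.45%, 1.23% and 1.37% of all counts in BHBNa_bIRI replicates 1, 2 and 3, 1.19% and 1.08% in bIRI replicates 1 and 3, and 1.77%, 1.87% and 1.93% in Sham replicates 1, 2 and 3. The 3 groups did not overlap in this share. Complex V took 0.606% to 0.692% of counts in BHBNa_bIRI, 0.613% and 0.572% in bIRI, and 1.10% to 1.14% in Sham. Complex IV took 0.374% to 0.461% in BHBNa_bIRI and 0.341% and 0.294% in bIRI, against 0.361% to 0.460% in Sham, so that its BHBNa_bIRI and Sham libraries overlapped. These shares are of all counts, so they also move with the mitochondrially encoded counts given above. On TMM-scaled CPM, complex V summed to 5878 to 7592 in BHBNa_bIRI, 5524 and 4179 in bIRI, and 11784 to 12488 in Sham. On that scale its BHBNa_bIRI and bIRI libraries did not overlap.

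**Figure D1:**
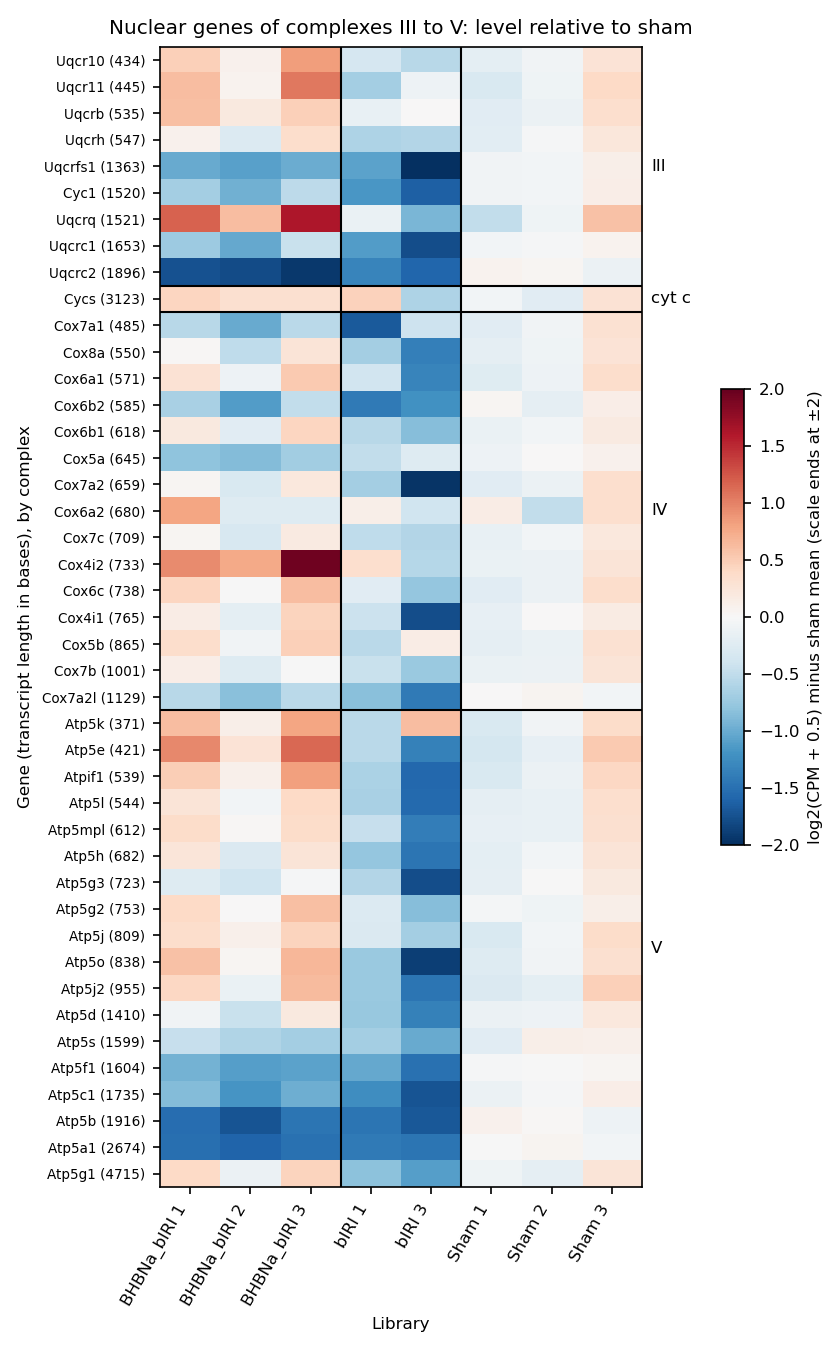
Colour gives log2(CPM + 0.5) minus the Sham mean for the 43 genes tested (rows, by complex and then by transcript length, given in bases in brackets) in the 8 libraries (columns). In bIRI most rows are blue, and in BHBNa_bIRI Uqcrc2, Atp5b and Atp5a1 stay blue, Atp5e and Uqcrq are pale to red, and long genes such as Atp5d and Atp5g1 are near white; colours end at ±2.

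Injury was compared with sham first. Of the 43 genes, 23 were lower in bIRI than in Sham and 0 were higher, where 16.2% of all genes tested were lower and 18.9% higher. No gene of the 43 was higher at an unadjusted p under 0.05 either, and DESeq2 called 0 higher and 31 lower (21.1% and 19.0% of all genes). The median log2 fold change was -0.96, against 0.08 over all genes tested. In 33 of the 43 genes both bIRI libraries lay below all Sham libraries, as in 27.2% of all genes. With offsets for the trends of each library with transcript length and GC content, 27 were lower and 0 higher, where 16.3% of all genes were lower and 20.2% higher. Without Sham replicate 3, 12 genes were lower (12.4% of all genes). Leaving out any other library of Sham or BHBNa_bIRI gave 17 to 21 (11.5% to 15.2%). Without bIRI replicate 1 or 3, which leaves a single bIRI library, the median log2 fold change was -1.42 or -0.67. Markers of the proximal tubule fell in the same comparison, 8 of 8, and their part in these changes was not tested.

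Complex III is given by the role of its subunits, which goes with their length. The coding parts of the core and electron-carrying subunits have 822 to 1440 bases, and those of the supernumerary subunits 168 to 333. Role and length cannot be told apart here, and no difference between these sets was tested. The 2 core subunits and the 2 subunits that carry electrons were all lower in bIRI, with log2 fold changes of -1.49 to -1.38, while 0 of the 5 small supernumerary subunits were called (1 at an unadjusted p under 0.05, and 1 by DESeq2). Uqcrc2, a core subunit at chr7:120635176-120659524 (GRCm38), had 228 and 189 CPM in bIRI, against 599, 587 and 524 CPM in Sham. Its log2 fold change was -1.45 ± 0.20 (SE; edgeR adjusted p = 0.000756), and the groups lay far apart. Uqcrc1, the other core subunit, had 325 and 207 CPM in bIRI, against 681, 698 and 745 CPM in Sham, a log2 fold change of -1.41 ± 0.27 (edgeR adjusted p = 0.00383). Uqcrfs1, the Rieske iron-sulfur protein, had 274 and 136 CPM in bIRI, against 546, 557 and 627 CPM in Sham, with the largest difference of the complex (-1.49 ± 0.29, edgeR adjusted p = 0.0043). Cyc1, which encodes cytochrome c1, averaged 188 ± 42.7 CPM in bIRI (SD, n = 2) and 492 ± 39.3 CPM in Sham (SD, n = 3).

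Among the small subunits of complex III, Uqcrb, which lies near the ubiquinone site, had 116 and 129 CPM in bIRI, against 110, 119 and 163 CPM in Sham. The groups overlapped (log2 fold change -0.10 ± 0.22, edgeR adjusted p = 0.764). The 5 small subunits had log2 fold changes of -0.61 to -0.10. Cycs, the mobile carrier between complexes III and IV, had 380 and 179 CPM in bIRI, against 266, 235 and 337 CPM in Sham, and its fitted log2 fold change was 0.00 ± 0.30.

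In complex IV, 5 of 15 genes tested were lower in bIRI, and all 15 estimates lay below 0 (-1.41 to -0.08). The called genes were Cox6b2, Cox7a2, Cox7a2l, Cox8a and Cox6b1. Cox7a2, a small subunit that meets complex III in supercomplexes, had 200 and 82.5 CPM in bIRI, against 274, 298 and 408 CPM in Sham (-1.21 ± 0.37, edgeR adjusted p = 0.0301). Cox7a2l, the related factor that joins complexes III and IV, had 111 and 74.0 CPM in bIRI, against 198, 205 and 190 CPM in Sham (-1.09 ± 0.22, edgeR adjusted p = 0.00456). Cox4i1, the common form of the regulatory subunit that is often used as a protein marker of mitochondria, had 625 and 248 CPM in bIRI, against 754, 846 and 949 CPM in Sham. Both bIRI libraries lay below Sham but far from each other. Cox4i1 was not called by edgeR (-0.96 ± 0.38, edgeR adjusted p = 0.0734), but DESeq2 called it (DESeq2 adjusted p = 0.0245).

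Of complexes III to V, complex V had the largest share of genes lower, 14 of 18. Of the F1 head, 4 of 5 were called, of the c ring 2 of 3, and of the stalk and membrane part 6 of 8. Atp5b, the catalytic beta subunit at chr10:128083273-128090391 (GRCm38), had 1525 and 1297 CPM in bIRI, against 4439, 4234 and 3901 CPM in Sham (-1.57 ± 0.24, edgeR adjusted p = 0.00124). It was the gene with the most negative log2 fold change of the 43, at 0.337 times the Sham level. Atp5a1, the alpha subunit that forms the head with it, had 1068 and 1042 CPM in bIRI, against 2839, 2973 and 2764 CPM in Sham (-1.44 ± 0.22, edgeR adjusted p = 0.00115). Atp5c1, the gamma subunit that turns inside the head, had 384 and 275 CPM in bIRI, against 838, 893 and 1000 CPM in Sham (-1.47 ± 0.24, edgeR adjusted p = 0.0017). The genes of complex V not called were Atp5e, Atp5g2, Atp5j and Atp5k, of which Atp5k, a small membrane subunit, had 23.6 and 52.9 CPM in bIRI, against 27.8, 32.9 and 44.6 CPM in Sham, with overlap.

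Pretreatment was then compared with injury alone. Of the 43 genes, 13 were higher in BHBNa_bIRI than in bIRI and 0 were lower, where 4.88% of all genes tested were higher and 8.65% lower. At an unadjusted p under 0.05, 29 were higher and 1 was lower, and DESeq2 called 26 higher and 0 lower (11.2% and 14.0% of all genes). The median log2 fold change was 0.78, against -0.05 over all genes. In 30 of the 43 genes all BHBNa_bIRI libraries lay above both bIRI libraries (22.2% of all genes), and in 3, Uqcrc2, Cox5a and Atp5a1, below (23.8%). The 13 called were 10 genes of complex V (Atp5e, Atp5o, Atpif1, Atp5j2, Atp5l, Atp5g1, Atp5h, Atp5mpl, Atp5d and Atp5g2), Uqcrq and Uqcr10 of complex III, and Cox6b1 of complex IV. This comparison shares its bIRI libraries with the one before and its values are not independent of those above.

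Atp5e, the epsilon subunit at the foot of the F1 head at chr2:174461072-174464105 (GRCm38), had 289, 179 and 329 CPM in BHBNa_bIRI, against 102 and 57.9 CPM in bIRI (1.74 ± 0.38, edgeR adjusted p = 0.0302). Atp5o, which holds the head to the outer stalk at chr16:91925214-91931687 (GRCm38), had 95.2, 65.2 and 101 CPM in BHBNa_bIRI, against 37.6 and 16.8 CPM in bIRI (1.68 ± 0.36, edgeR adjusted p = 0.0293). Atpif1, the peptide that blocks ATP hydrolysis by the enzyme when the membrane loses its charge, had 106, 81.2 and 133 CPM in BHBNa_bIRI, against 48.2 and 25.1 CPM in bIRI (1.54 ± 0.34, edgeR adjusted p = 0.0306). In each of these 3 genes the groups were apart, and bIRI replicate 3 was the lowest library.

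Uqcrq, a small subunit of complex III at chr11:53427922-53430831 (GRCm38), had 533, 363 and 722 CPM in BHBNa_bIRI, against 214 and 125 CPM in bIRI (1.67 ± 0.41, edgeR adjusted p = 0.0355). Uqcr10, another small subunit, had 256, 195 and 326 CPM in BHBNa_bIRI, against 145 and 125 CPM in bIRI (0.94 ± 0.26, edgeR adjusted p = 0.0423). Cox6b1, a subunit at the face between the monomers of complex IV, had 363, 273 and 429 CPM in BHBNa_bIRI, against 216 and 176 CPM in bIRI (0.86 ± 0.24, edgeR adjusted p = 0.0467). Of the 15 complex IV genes tested it was the 1 that was called.

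Further genes of complex V were called in both comparisons that hold bIRI, lower than Sham and below BHBNa_bIRI. Atp5j2, a small membrane subunit, had 370, 254 and 430 CPM in BHBNa_bIRI, 167 and 101 CPM in bIRI, and 228, 244 and 388 CPM in Sham. Atp5l, subunit g of the membrane part, had 194, 156 and 214 CPM in BHBNa_bIRI, 104 and 54.9 CPM in bIRI, and 144, 146 and 205 CPM in Sham. In both genes bIRI lay below all other libraries, and BHBNa_bIRI overlapped Sham. Atp5h, subunit d of the outer stalk, had 393, 273 and 400 CPM in BHBNa_bIRI, 194 and 121 CPM in bIRI, and 289, 321 and 397 CPM in Sham. Atp5mpl, a small protein bound to the enzyme, had 203, 160 and 204 CPM in BHBNa_bIRI, 114 and 60.1 CPM in bIRI, and 140, 142 and 197 CPM in Sham. Atp5d, the delta subunit of the central stalk, had 499, 388 and 604 CPM in BHBNa_bIRI, 310 and 205 CPM in bIRI, and 487, 492 and 610 CPM in Sham. Their log2 fold changes in BHBNa_bIRI against bIRI were 1.39 ± 0.34 for Atp5j2, 1.24 ± 0.30 for Atp5l, 1.17 ± 0.28 for Atp5h, 1.12 ± 0.30 for Atp5mpl and 0.95 ± 0.27 for Atp5d (SE; edgeR adjusted p of 0.0347 to 0.0487). In the other genes named in this comparison, Sham had 53.2, 60.5 and 79.1 CPM of Atp5o, 60.8, 69.8 and 101 CPM of Atpif1, and 291, 306 and 362 CPM of Cox6b1.

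Of the core and catalytic subunits of complex III and the F1 head, edgeR called Atp5d and Atp5e alone, and the others varied among themselves. Uqcrc1 had 429, 349 and 522 CPM in BHBNa_bIRI, against 325 and 207 CPM in bIRI (0.70 ± 0.26, edgeR adjusted p = 0.0938, DESeq2 adjusted p = 0.0319). Cyc1 had 307, 251 and 342 CPM in BHBNa_bIRI, against 219 and 158 CPM in bIRI (0.67 ± 0.23, edgeR adjusted p = 0.0745, DESeq2 adjusted p = 0.0172). Atp5c1 had 500, 401 and 462 CPM in BHBNa_bIRI, against 384 and 275 CPM in bIRI (0.46 ± 0.23, edgeR adjusted p = 0.18). In these 3 genes all BHBNa_bIRI libraries lay above both bIRI libraries. Uqcrfs1 had 287, 272 and 289 CPM in BHBNa_bIRI, against 274 and 136 CPM in bIRI, with overlap (0.46 ± 0.28, edgeR adjusted p = 0.269). Atp5b had 1463, 1261 and 1515 CPM in BHBNa_bIRI, against 1525 and 1297 CPM in bIRI, with overlap and a log2 fold change of 0.00 ± 0.23. Atp5a1 had 1004, 945 and 1016 CPM in BHBNa_bIRI, against 1068 and 1042 CPM in bIRI (-0.09 ± 0.20, edgeR adjusted p = 0.776). Uqcrc2 had 169, 164 and 149 CPM in BHBNa_bIRI, against 228 and 189 CPM in bIRI, and all 3 pretreated libraries lay below both others without a call (-0.38 ± 0.19, edgeR adjusted p = 0.186). Cox5a, a subunit of complex IV encoded by a short transcript, had 90.2, 86.4 and 97.2 CPM in BHBNa_bIRI, against 112 and 131 CPM in bIRI (-0.41 ± 0.17, edgeR adjusted p = 0.114).

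**Figure D2:**
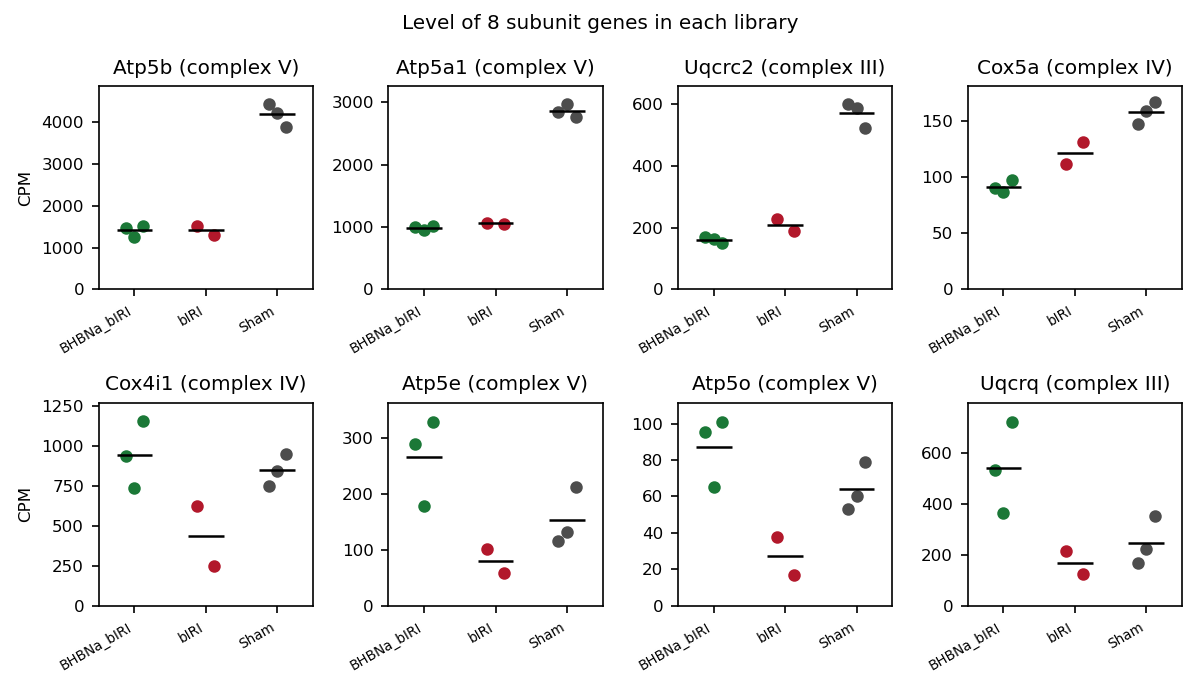
Points are CPM in each library and lines are group means for 8 genes, with BHBNa_bIRI at the left, bIRI in the middle and Sham at the right, on axes that start at 0. Atp5b, Atp5a1 and Uqcrc2 (top) are low in both injured groups. Atp5e and Atp5o (bottom) are low in bIRI, where Uqcrq (bottom) overlaps Sham. In BHBNa_bIRI, Atp5e, Atp5o and Uqcrq lie at or above the Sham mean.

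The count of calls in BHBNa_bIRI against bIRI changed with single libraries and with a joint correction for transcript length and GC content, whose parts were not tested apart. When the trends of each library with transcript length and GC content were used as offsets in the same fit, 0 of the 43 genes were called (9 higher and 2 lower at an unadjusted p under 0.05), and of all genes 0 were called higher and 2 (0.0111%) lower. The median of the 43 was then 0.13. Without Sham replicate 1, Sham replicate 2, BHBNa_bIRI replicate 1 or BHBNa_bIRI replicate 3 the count was also 0, with 18 to 26 genes higher at an unadjusted p under 0.05. Of all genes, at most 1 was called in any of these fits, so the lack of calls was not particular to the 43. The count was 6 without Sham replicate 3 and 10 without BHBNa_bIRI replicate 2, where 1.83% and 2.65% of all genes were higher. Without bIRI replicate 1 or 3 a single bIRI library is left, and the median log2 fold change of the genes was 1.11 or 0.64.

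Genes not called by edgeR in any of the 3 comparisons included the rest of the small subunits. Of the genes without an edgeR call in any comparison, DESeq2 called Uqcrh, Cox6a1, Cox7b, Cox7c, Cox4i1 and Cox7a1 lower in bIRI than in Sham. It called Uqcrh, Cox6a1, Cox7b, Uqcr11, Cox6c, Atp5j and Cox4i1 higher in BHBNa_bIRI than in bIRI. Uqcr11 of complex III had 201, 138 and 274 CPM in BHBNa_bIRI, 81.3 and 122 CPM in bIRI, and 106, 123 and 173 CPM in Sham. Uqcrh, the acidic hinge protein near cytochrome c1, had 310, 241 and 371 CPM in BHBNa_bIRI, 189 and 195 CPM in bIRI, and 253, 288 and 340 CPM in Sham. In complex IV, Cox5b, which binds zinc, had 382, 286 and 419 CPM in BHBNa_bIRI, 207 and 333 CPM in bIRI, and 264, 274 and 372 CPM in Sham. Its bIRI libraries lay far apart, and the 3 groups overlapped. Cox6c, Cox7b and Cox7c had log2 fold changes of -0.49 ± 0.28, -0.60 ± 0.22 and -0.56 ± 0.22 in bIRI against Sham and of 0.84 ± 0.29, 0.55 ± 0.22 and 0.53 ± 0.22 in BHBNa_bIRI against bIRI. Cox6a1, the common form of its subunit, had 648, 492 and 759 CPM in BHBNa_bIRI, 407 and 213 CPM in bIRI, and 446, 494 and 677 CPM in Sham. Atp5j, coupling factor 6 of the stalk, had 266, 226 and 286 CPM in BHBNa_bIRI, 171 and 131 CPM in bIRI, and 170, 201 and 269 CPM in Sham.

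Pretreated injury was last compared with sham. Of the 43 genes, 12 were lower in BHBNa_bIRI than in Sham and 2 were higher, where 22.2% of all genes tested were lower and 21.3% higher, so the share that was lower (27.9%) stood near the background. The median log2 fold change was 0.15, against 0.04 over all genes. With the offsets for length and GC content, 24 were lower and 1 was higher (22.2% and 23.8% of all genes), and the median was -0.50. In 13 genes all BHBNa_bIRI libraries lay below Sham (32.2% of all genes) and in 3 above (32.6%). Without BHBNa_bIRI replicate 2, 7 were lower (17.9% of all genes) and 4 higher. The count higher was 0 without Sham replicate 1, Sham replicate 2 or BHBNa_bIRI replicate 3 (2 at an unadjusted p under 0.05 each time), 1 without BHBNa_bIRI replicate 1, 4 without Sham replicate 3 and 3 without either bIRI library. Atp5s, which is no subunit, had 13.4, 12.1 and 11.4 CPM in BHBNa_bIRI, 11.5 and 8.99 CPM in bIRI, and 15.9, 20.3 and 20.1 CPM in Sham. The 12 were the 4 core and catalytic subunits of complex III, Atp5a1, Atp5b, Atp5c1, Atp5f1 and Atp5s of the complex V group, and Cox5a, Cox6b2 and Cox7a2l. The 2 that were higher were Uqcrq and Cox4i2.

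Uqcrfs1 had 287, 272 and 289 CPM in BHBNa_bIRI, against 546, 557 and 627 CPM in Sham, without overlap (-1.03 ± 0.25, edgeR adjusted p = 0.00909). Uqcrc2 had 169, 164 and 149 CPM in BHBNa_bIRI, against 599, 587 and 524 CPM in Sham, the most negative value of the 43 (-1.83 ± 0.17, edgeR adjusted p = 7.32e-05). Atp5b was at 0.337 times and Atp5a1 at 0.346 times its Sham level (log2 fold changes of -1.57 ± 0.21 and -1.53 ± 0.19, edgeR adjusted p = 0.000399 and 0.000267). Atp5f1, the b subunit of the outer stalk, had 381, 343 and 349 CPM in BHBNa_bIRI, against 720, 729 and 757 CPM in Sham (-1.04 ± 0.19, edgeR adjusted p = 0.00207). Cox5a had 90.2, 86.4 and 97.2 CPM in BHBNa_bIRI, against 147, 159 and 167 CPM in Sham (-0.79 ± 0.15, edgeR adjusted p = 0.00272). In each of these genes the groups were apart.

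Uqcrq had 533, 363 and 722 CPM in BHBNa_bIRI, against 167, 222 and 353 CPM in Sham (1.12 ± 0.35, edgeR adjusted p = 0.0273). Sham replicate 3 came close to BHBNa_bIRI replicate 2. Atp5e had 289, 179 and 329 CPM in BHBNa_bIRI, against 116, 132 and 213 CPM in Sham, with overlap and no call (0.79 ± 0.32, edgeR adjusted p = 0.0711).

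The genes were then set out by the length of the longest protein-coding transcript. The 43 ran from 371 bases for Atp5k to 4715 bases for Atp5g1, with a median of 738, against 2760.5 over all genes tested. Of the 28 under 1000 bases, 11 were lower in bIRI than in Sham and 0 higher (11.8% and 9.82% of all genes under that length), 10 were higher and 0 lower in BHBNa_bIRI than in bIRI (13.4% and 2.51%), and 2 were lower and 1 higher in BHBNa_bIRI than in Sham (10.3% lower and 27.3% higher). Of the 15 at or over 1000 bases, 12 were lower in bIRI than in Sham and 0 higher (16.8% and 20.2% of all genes of that length), 3 were higher and 0 lower in BHBNa_bIRI than in bIRI (3.71% and 9.51%), and 10 were lower and 1 higher in BHBNa_bIRI than in Sham (23.9% lower and 20.5% higher).

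In bIRI against Sham the short members had a median log2 fold change of -0.75, where all short genes had -0.07, and the long ones -1.24, where all long genes had 0.11. In BHBNa_bIRI against bIRI the medians were 0.91 for the short genes of the complexes and 0.65 for all short genes, and 0.46 for the long ones and -0.10 for all long genes. In BHBNa_bIRI against Sham they were 0.25 and 0.53 for the short, and -0.71 and -0.01 for the long. The part of transcript length in the differences, apart from that of GC content, was not tested.

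Across the 43 genes, Spearman's rho between transcript length and log2 fold change was -0.413 in bIRI against Sham, -0.313 in BHBNa_bIRI against bIRI and -0.450 in BHBNa_bIRI against Sham. Over 17928 genes it was 0.129, -0.393 and -0.148 in the same order. These genes are not independent of each other, and all come from the same 8 libraries. Within complex III (9 genes) rho was -0.700, -0.317 and -0.533, within complex V (18 genes) -0.505, -0.494 and -0.692, and within complex IV (15 genes) 0.332, -0.075 and 0.304. With the offsets, rho over the 43 genes was -0.566, 0.307 and -0.145. On merged exon length in place of transcript length it was -0.376, -0.115 and -0.284. On coding length, a measure added after the data were seen, it was -0.522, -0.324 and -0.534. With GC content, rho over the 43 genes was -0.051, 0.363 and 0.169, and over all genes -0.202, 0.361 and 0.058. Some genes stood off the trend. Cox5a, of 645 bases, had a negative log2 fold change in BHBNa_bIRI against bIRI, and Uqcrq, of 1521 bases, and Atp5g1, of 4715 bases, were higher. The coding parts of Uqcrq and Atp5g1 are 246 and 408 bases.

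**Figure D3:**
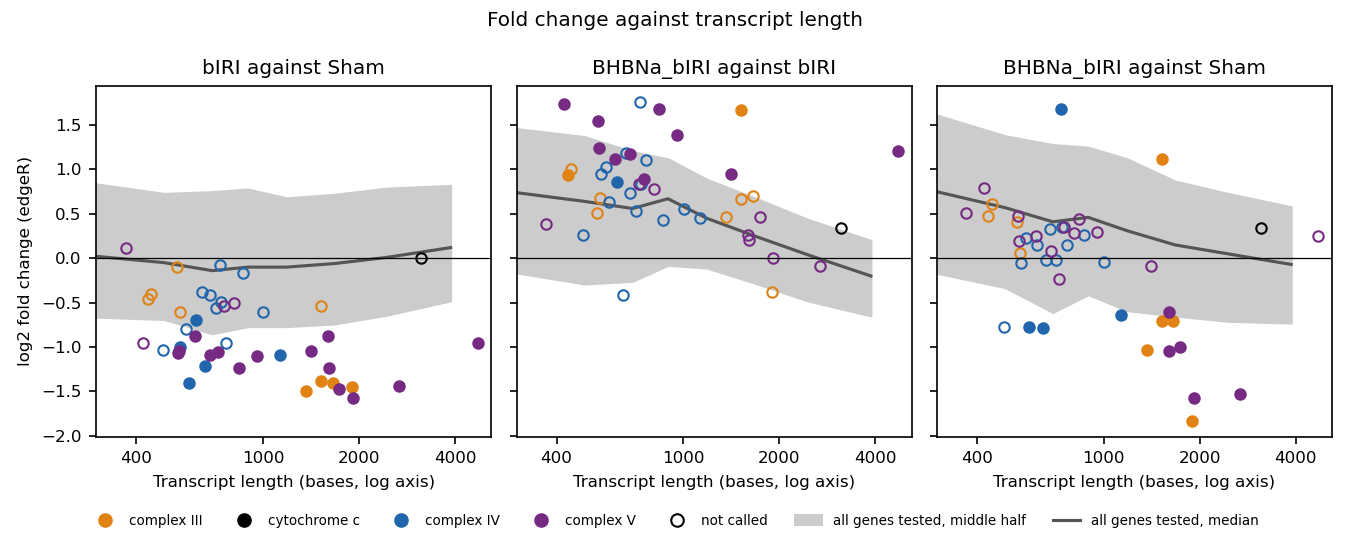
Each point is a gene, with its log2 fold change on the y axis against the length of its longest protein-coding transcript on the x axis (log scale), filled where called; the grey line is the median of all genes tested by length, and the band runs from their lower to their upper quartile. In BHBNa_bIRI against bIRI the band falls with length and most points lie in or above it, while in bIRI against Sham the band is flat and the points lie mostly below its median.

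Ratios of 2 genes within a library do not depend on scaling, but they carry any trend of that library with transcript length or GC content. The pairs were chosen with the changes of their genes known, and most set a longer transcript over a shorter one. With the offsets, the log2 fold change in BHBNa_bIRI against bIRI was -0.26 for Atp5b (0.00 without) and 0.58 for Atp5e (1.74 without). Per kilobase of transcript, Atp5b stood at 1.11, 1.54 and 1.01 times Atp5e in BHBNa_bIRI, 3.30 and 4.92 times in bIRI, and 8.42, 7.02 and 4.02 times in Sham. In the enzyme, several beta subunits stand beside a single epsilon. BHBNa_bIRI lay below both other groups in this ratio, and bIRI overlapped Sham. Uqcrc2 stood at 0.255, 0.362 and 0.166 times Uqcrq in BHBNa_bIRI, 0.854 and 1.21 times in bIRI, and 2.88, 2.12 and 1.19 times in Sham. Cox5a stood at 0.316, 0.405 and 0.311 times Cox5b in BHBNa_bIRI, 0.724 and 0.528 times in bIRI, and 0.745, 0.777 and 0.604 times in Sham. The ratio of Cox4i1 to Cox7a2 (transcripts of 765 and 659 bases) was 2.43, 2.45 and 2.68 in BHBNa_bIRI, 2.70 and 2.60 in bIRI, and 2.37, 2.45 and 2.01 in Sham.

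Several subunits are encoded by more than 1 gene. Shares within a family were taken on counts per kilobase of the longest protein-coding transcript. An exact two-sided permutation test over libraries cannot go below 0.1, for 3 against 3 or 3 against 2 libraries, so no difference of shares could pass 0.05. In CPM, Atp5g1 had 283, 197 and 294 CPM in BHBNa_bIRI, 122 and 99.9 CPM in bIRI, and 203, 190 and 257 CPM in Sham. Atp5g2 had 189, 144 and 218 CPM in BHBNa_bIRI, 119 and 79.2 CPM in bIRI, and 140, 136 and 156 CPM in Sham, and Atp5g3 had 828, 752 and 967 CPM in BHBNa_bIRI, 661 and 290 CPM in bIRI, and 873, 977 and 1129 CPM in Sham. Levels of the 3 genes differ in transcript length, so their order is given per kilobase. The c ring can be built from identical mature proteins of Atp5g1, Atp5g2 and Atp5g3. Atp5g3 held most of the family, with 79.8% ± 1.62 in BHBNa_bIRI (SD, n = 3), 79.6% ± 5.05 in bIRI (SD, n = 2) and 85.2% ± 1.02 in Sham (SD, n = 3). Atp5g2 had 17.2%, 15.0% and 17.1% in BHBNa_bIRI, 14.4% and 19.9% in bIRI, and 13.0%, 11.5% and 11.4% in Sham. All injured libraries lay above Sham in its share (exact permutation p = 0.1 for both comparisons with Sham). Atp5g1 had 3.70% ± 0.419 in BHBNa_bIRI, 3.19% ± 1.17 in bIRI and 2.85% ± 0.248 in Sham. Its share depends on the length used: in counts with no correction for length it was 19.9% in BHBNa_bIRI, 17.4% in bIRI and 16.0% in Sham.

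In BHBNa_bIRI, Cox4i1 had 937, 740 and 1157 CPM, Cox7a2 had 332, 260 and 372 CPM, and Cox7a2l had 134, 110 and 136 CPM. Within the Cox7a family, Cox7a2 had 79.8%, 79.1% and 81.3% in BHBNa_bIRI, 74.8% and 62.2% in bIRI, and 68.9%, 69.8% and 76.9% in Sham. BHBNa_bIRI lay above every other library (exact permutation p = 0.1). Cox7a2l had 18.5% ± 1.13 in BHBNa_bIRI, 28.4% ± 5.87 in bIRI and 26.0% ± 4.47 in Sham. Cox7a1, the form of heart and skeletal muscle, had 1.49%, 1.34% and 1.37% in BHBNa_bIRI, 0.925% and 5.21% in bIRI, and 2.01%, 2.09% and 2.24% in Sham. The bIRI libraries lay on either side of all others. In CPM, Cox7a1 had 4.57, 3.23 and 4.62 in BHBNa_bIRI, 1.82 and 5.08 in bIRI, and 5.86, 6.58 and 8.73 in Sham.

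Cox6b2, known as the testis form, was lower in bIRI than in Sham (-1.41 ± 0.27, edgeR adjusted p = 0.0036) and lower in BHBNa_bIRI than in Sham (-0.78 ± 0.23, edgeR adjusted p = 0.0206). It had 7.39, 5.23 and 8.34 CPM in BHBNa_bIRI, 4.16 and 4.86 CPM in bIRI, and 12.3, 10.5 and 13.1 CPM in Sham. Its share beside Cox6b1 was 2.10%, 1.98% and 2.01% in BHBNa_bIRI, 1.99% and 2.83% in bIRI, and 4.28%, 3.52% and 3.68% in Sham, so that every injured library lay below Sham (exact permutation p = 0.1). The 1 male germ cell marker in the tables did not exceed 0.0543 CPM in any library.

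Cox4i2, the form of lung and of oxygen-sensing smooth muscle, had 2.35, 2.02 and 5.22 CPM in BHBNa_bIRI, 1.38 and 0.502 CPM in bIRI, and 0.845, 0.868 and 1.27 CPM in Sham. It was higher in BHBNa_bIRI than in Sham (1.68 ± 0.50, edgeR adjusted p = 0.0228), but with the length and GC offsets its value was 0.96 (edgeR adjusted p = 0.0606). It was not called without Sham replicate 1, Sham replicate 2 or BHBNa_bIRI replicate 3. Its share beside Cox4i1 was 0.338% ± 0.113 in BHBNa_bIRI, 0.220% ± 0.0138 in bIRI and 0.121% ± 0.0165 in Sham. Of the 4 smooth muscle markers (Acta2, Myh11, Tagln and Cnn1), 4 were higher in BHBNa_bIRI than in Sham (21.3% of all genes). In bIRI against Sham 2 of the 4 were higher (18.9% of all genes), where the Cox4i2 value was -0.08 ± 0.56. Of 6 pericyte markers, 2 were higher and 2 lower in BHBNa_bIRI than in Sham (21.3% and 22.2% of all genes). The smooth muscle markers summed to 426 to 490 CPM in BHBNa_bIRI, 461 and 111 CPM in bIRI, and 80.4 to 130 CPM in Sham. The part of either cell type in the Cox4i2 difference was not tested.

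**Figure D4:**
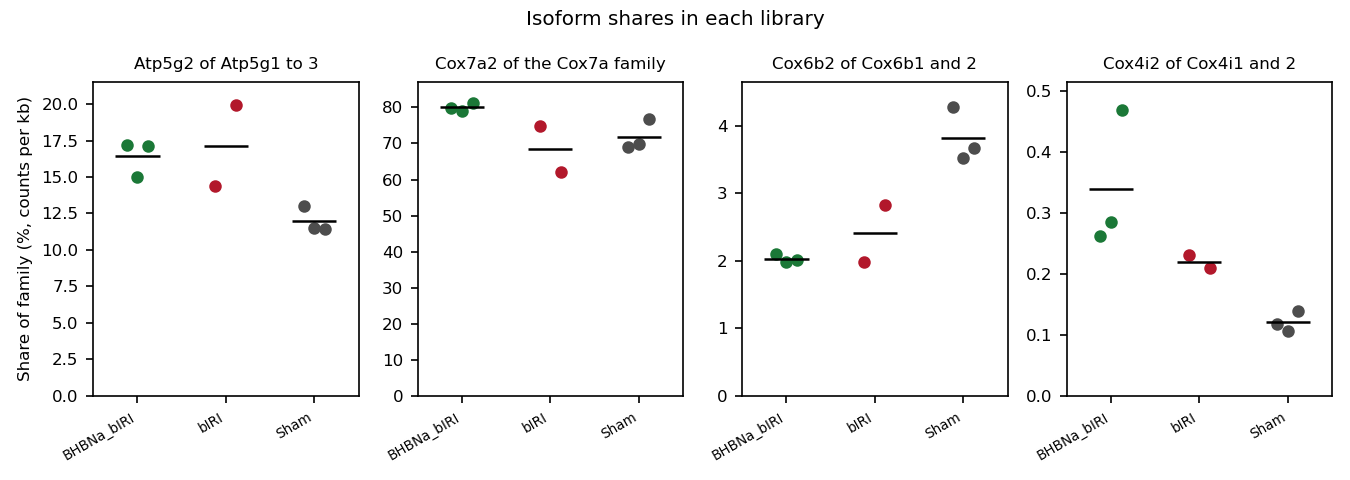
Points are the share of a gene in its family in each library, in percent of counts per kilobase of the longest protein-coding transcript, and lines are group means, with BHBNa_bIRI at the left, bIRI in the middle and Sham at the right. The Cox6b2 share is 3.52% to 4.28% in Sham and at most 2.83% in the injured groups, and the Cox4i2 share stays below 0.5% throughout.

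Cox6a2, the form of heart and skeletal muscle, had 40, 9 and 7 counts in BHBNa_bIRI, 18 and 6 in bIRI, and 17, 4 and 21 in Sham, with no call in any comparison. Its share beside Cox6a1 was at most 0.121%. Cox8a, the common form beside Cox8b, had 682, 474 and 799 CPM in BHBNa_bIRI, 417 and 259 CPM in bIRI, and 592, 631 and 808 CPM in Sham. Cox8b, the form of heart, skeletal muscle and brown fat, had 54 counts in BHBNa_bIRI replicate 2, 0 in replicates 1 and 3, 0 and 2 in bIRI, and 0, 0 and 2 in Sham. The 6 markers of brown and white fat (Ucp1, Cidea, Elovl3, Adipoq, Plin1 and Cfd) summed to 58.5 CPM in that library, to 0.280 and 0.869 CPM in the other BHBNa_bIRI libraries, to 2.01 and 2.25 CPM in bIRI, and to 0.398 to 0.724 CPM in Sham. Cfd made up 49.8 CPM of it and Ucp1 0.409 CPM. The heart markers summed to at most 1.06 CPM and the skeletal muscle markers to at most 1.70 CPM in any library. The part of fat tissue in the Cox8b counts was not tested.

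Assembly factors of the 3 complexes were tested as lists. Of all genes, 16.2% were lower in bIRI than in Sham, 4.88% were higher in BHBNa_bIRI than in bIRI, and 21.3% were higher and 22.2% lower in BHBNa_bIRI than in Sham. With the length and GC offsets no gene of these lists, or of those that follow, was called in BHBNa_bIRI against bIRI, where 0 of all genes were higher and 2 lower. For complex III, 2 of 6 were lower in bIRI than in Sham, 3 were higher in BHBNa_bIRI than in bIRI, and 2 were higher and 1 lower in BHBNa_bIRI than in Sham. Uqcc2, which is needed to make cytochrome b, had 145, 86.4 and 164 CPM in BHBNa_bIRI, 46.4 and 32.7 CPM in bIRI, and 27.2, 29.9 and 43.1 CPM in Sham. It was higher in BHBNa_bIRI than in bIRI (1.74 ± 0.32, edgeR adjusted p = 0.0275) and than in Sham (1.98 ± 0.28, edgeR adjusted p = 0.000602). Bcs1l, which inserts the Rieske protein Uqcrfs1, was lower in bIRI than in Sham (-1.05 ± 0.19, edgeR adjusted p = 0.00292).

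For complex IV, 8 of 23 factors were lower in bIRI than in Sham, 7 were higher in BHBNa_bIRI than in bIRI, and 3 were higher and 4 lower in BHBNa_bIRI than in Sham, where both shares (13.0% and 17.4%) lay below those of all genes. Cox19, a factor of copper delivery, had 67.9, 48.7 and 68.8 CPM in BHBNa_bIRI, 26.2 and 19.4 CPM in bIRI, and 34.6, 39.5 and 47.1 CPM in Sham. It was called in all 3 comparisons (-0.83 ± 0.23 in bIRI against Sham, 1.44 ± 0.23 in BHBNa_bIRI against bIRI and 0.61 ± 0.20 in BHBNa_bIRI against Sham). Cox15, an enzyme that makes heme A for the complex, was lower in BHBNa_bIRI than in Sham (-1.37 ± 0.14, edgeR adjusted p = 0.000111). For complex V, 5 of 5 factors were lower in bIRI than in Sham, 1 (Fmc1) was higher in BHBNa_bIRI than in bIRI, and 3 were lower in BHBNa_bIRI than in Sham. Atpaf1, a chaperone of the beta subunit Atp5b, had 13.6, 11.1 and 10.7 CPM in BHBNa_bIRI, 15.6 and 14.3 CPM in bIRI, and 31.3, 28.5 and 25.4 CPM in Sham.

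The 6 mitochondrially encoded subunits of complexes III to V were not called in bIRI against Sham (0 of 6 by edgeR, with log2 fold changes of -1.28 to 1.71; 1, mt-Atp8, was higher at an unadjusted p under 0.05 and by DESeq2). In BHBNa_bIRI against bIRI 2 were higher (4.88% of all genes), and in BHBNa_bIRI against Sham 5 (21.3% of all genes). With the length and GC offsets 2 were higher in BHBNa_bIRI than in Sham. The catalytic subunit gene mt-Co1 had 155976, 129652 and 205225 CPM in BHBNa_bIRI, 62858 and 36226 CPM in bIRI, and 63771, 62223 and 76192 CPM in Sham. It was higher in BHBNa_bIRI than in Sham (1.28 ± 0.33, edgeR adjusted p = 0.0115). Of the 11 nuclear genes of complex IV outside the tissue forms, 2 (Cox5a and Cox7a2l) were lower there and 0 higher (22.2% and 21.3% of all genes). Their median log2 fold change was -0.02. With the offsets, 8 of the 11 were lower and 0 higher (22.2% and 23.8% of all genes), and their median was -0.58. The libraries were made from poly(A)-selected RNA.

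Of 10 regulators of mitochondrial biogenesis, 1 was higher and 1 lower in bIRI than in Sham, 1 was higher and 3 lower in BHBNa_bIRI than in bIRI, and 1 was higher and 5 lower in BHBNa_bIRI than in Sham. Over all genes the shares higher and lower were 18.9% and 16.2%, 4.88% and 8.65%, and 21.3% and 22.2%, so the share of regulators called in bIRI against Sham (10% each way) was below them. Ppargc1a, the coactivator PGC-1alpha, had 14.1, 12.8 and 11.9 CPM in BHBNa_bIRI, 18.4 and 79.3 CPM in bIRI, and 36.6, 40.6 and 30.7 CPM in Sham. It was lower in BHBNa_bIRI than in bIRI (-1.92 ± 0.45, edgeR adjusted p = 0.0339), and the bIRI libraries lay on either side of Sham. Esrra, the nuclear receptor of the ERRA motif, was lower in bIRI than in Sham (-1.05 ± 0.20, edgeR adjusted p = 0.004) and higher in BHBNa_bIRI than in bIRI (0.75 ± 0.20, edgeR adjusted p = 0.041). Gabpa, an ETS factor, was higher in bIRI than in Sham (0.67 ± 0.18, edgeR adjusted p = 0.0168), and lower in BHBNa_bIRI than in bIRI (-1.01 ± 0.18, edgeR adjusted p = 0.0275). Of the 10 genes with an ETS match, 4 were lower in bIRI than in Sham and 4 higher in BHBNa_bIRI than in bIRI, and of the 4 with an NRF1 match 1 (Uqcrc1) was lower and 1 (Atp5g2) higher. Of the genes of cristae and supercomplexes, a list of 6 that holds Cox7a2l itself, 5 were lower in bIRI than in Sham, 2 were higher and 1 lower in BHBNa_bIRI than in bIRI, and 1 was higher and 4 lower in BHBNa_bIRI than in Sham. Immt, the scaffold of cristae junctions, had 167, 136 and 146 CPM in BHBNa_bIRI, 176 and 186 CPM in bIRI, and 423, 408 and 373 CPM in Sham.

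The complexes upstream were tested in the same fit. Complex I subunits were taken by name (Nduf followed by a, b, c, s or v, without assembly factors), so some may belong elsewhere. Of these 38 genes, 19 were lower in bIRI than in Sham and 18 were higher in BHBNa_bIRI than in bIRI. In BHBNa_bIRI against Sham, 5 were higher and 6 lower. These shares were 50% (16.2% of all genes), 47.4% (4.88%), and 13.2% higher and 15.8% lower (21.3% and 22.2%). Their medians were -0.83, 0.90 and 0.10 in the same order, beside -0.96, 0.78 and 0.15 for the 43 genes of complexes III to V. Of the 4 complex II subunits, 4 were lower in bIRI than in Sham and 4 in BHBNa_bIRI than in Sham, with 1 higher in BHBNa_bIRI than in bIRI. No difference between complexes was tested.

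Across the 8 libraries, the Pearson correlation of a gene with the mean profile of the other genes had a median of 0.86, with 24 of the 43 at or over 0.8. It was 0.99 for Cox8a and Atp5d, and lowest for Cox5a (0.09), Atp5k (0.15) and Uqcrc2 (0.30). Among genes outside the complexes with a mean of at least 5 CPM, the profile most like the mean was that of Ndufs8, an iron-sulfur subunit of complex I (r = 0.994), followed by Ccdc107 (0.989), Ccdc51 (0.988), Tmem176a (0.988) and Cenpb (0.987). These values describe 8 libraries that share group, depth and length trends.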

How the data were processed

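Kidney poly(A) RNA was sequenced as paired ends, per the labels' protocols. The authors deposited raw counts per gene for 9 libraries. The submitters' processing notes name HISAT2, featureCounts, Subread, DESeq2 and the build mm10. Versions, annotation, strand setting and pooling are not given in the sources used here. Of the gene IDs, 29220 of 29678 were named from GENCODE M21.

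The genes and lists were chosen with earlier results of these data known. The table of bIRI replicate 2, a mean of the other 2, was left out. Counts of 8 libraries were filtered (filterByExpr), scaled by TMM (factors 0.83 to 1.371) and fitted with edgeR 4.0.16 in R 4.3.3 (robust quasi-likelihood, no covariates, 5 residual degrees of freedom, biological coefficient of variation 0.296). p-values were adjusted by Benjamini-Hochberg over 17967 genes. The SE is the log2 fold change over the root of F. Offsets for length and GC content came from natural splines with 5 degrees of freedom each. Alternatives were DESeq2 1.42.0, other filters, scaling, thresholds and lengths (coding length was added after the data were seen), a replicate block and leaving out libraries. Values in every library are given for the isoform families, for genes called in both comparisons that hold bIRI, for up to 3 called genes of largest change per complex and comparison, and for some of the called genes of each other list; others named were chosen after their values were seen. The fit was tested on simulated data: for bIRI against Sham, with 17511 genes in the step, it recovered 29% of 100 genes changed 2-fold and 100% of 100 genes changed 4-fold. In the real data 6303 genes were called in this comparison, far more than were changed in the simulation. The adjusted threshold depends on that number, so the recovered shares may not hold for the real data. Floors cover counting error only. Python 3.11.15, pandas 2.3.3, scipy 1.17.1 and matplotlib 3.10.9 were used.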

Additional observations from a re-analysis of the deposited data

How the results depend on the processing

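Over leaving out each library in turn, the number of genes called ranged from 12 to 33 lower in bIRI against Sham, from 0 to 31 higher in BHBNa_bIRI against bIRI (with at most 1 lower) and from 7 to 13 lower in BHBNa_bIRI against Sham (with 0 to 4 higher), and the median log2 fold change of the genes tested from -1.42 to -0.67, from 0.64 to 1.11 and from -0.01 to 0.30. With the length and GC offsets, BHBNa_bIRI against bIRI had 0 calls and a median of 0.13 (0 and 0.17 with the replicate block added), and BHBNa_bIRI against Sham had 24 genes lower, 1 higher and a median of -0.50 (20, 1 and -0.50 with the block). The rank correlation with length in BHBNa_bIRI against bIRI turned from -0.313 to 0.307 with the offsets, which remove each library's trends with length and GC content together. At an adjusted p of 0.01, 10 genes were lower in bIRI against Sham (9.07% of all genes) and 7 in BHBNa_bIRI against Sham (14.1%). In BHBNa_bIRI against bIRI 0 of the 43 and 0 of all genes were called at that threshold. BHBNa_bIRI against bIRI had 26 genes higher with DESeq2 (11.2% of all genes) and 21 with no filter on low counts (4.98%). The causes of these 2 counts were not tested. With all 9 tables, where the averaged table counts as a library, 29 were higher (15.5% of all genes) and 1 lower. The deviations of same-numbered libraries from their group means had r of -0.206 to 0.0925 (7 pairs). These values cannot decide whether the numbers pair libraries, since the deviations of 2 bIRI libraries mirror each other. With the number as a replicate block 18 genes were lower in bIRI against Sham (12.6% of all genes). BHBNa_bIRI against bIRI then had 0 calls over all genes, and BHBNa_bIRI against Sham had 10 lower (18.9% of all genes) and 2 higher. Of 250 isoform shares recomputed, 24 moved by more than the replicate spread, mostly with another length. With 2 bIRI libraries, changes of about 2-fold were often missed in simulation. Far fewer genes were changed there than were called in the real data, so this may not hold for the real data.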
